A study of Mus musculus with 4 samples.

Results

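Genes of megakaryocytes and platelets were examined in mouse haematopoietic stem cells (HSC) after acute loss of the retinoblastoma family. The 37 genes were listed by name, and a gene was measured where the array held a probe set annotated with its symbol alone. This was so for 33 of the 37, out of 18193 genes measured in all. Gp1ba, Serpine2, Ptgs1 and Bin2 had no such probe set and have no value here. Expression was read on 4 arrays, each from a pool of 3 mice. The 2 Rb family deficient pools carry the genotype label Rb -/- p130 -/- p107-/-, and the 2 wild type pools Rb +/+ p130 +/+ p107-/-, so p107 (Rbl1) is absent by label from all 4 pools. All mice were adult and received tamoxifen to start recombination, and KLS (Kit+, lineage negative, Sca-1+) CD48- CD150+ cells were sorted 2 weeks later. The promoter that drives the recombinase, the age in weeks and the strain are not stated in the sources at hand. Nothing states whether a mouse entered more than 1 pool, so the p-values measure the spread between these pools.

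Megakaryocytes are the bone marrow cells that shed platelets. Platelets stick to damaged vessels through the von Willebrand factor receptor (the glycoprotein Ib-IX-V complex) and a collagen receptor, are activated through thrombin, ADP, ATP and thromboxane receptors, release the content of their granules, and bind one another through the integrin of Itga2b and Itgb3. CD150+ HSC transcribe several of these genes, and Vwf and Itga2b are used to mark stem cells biased towards platelet production. A signal from these genes in a bulk sample may therefore come from the stem cells or from a few megakaryocyte progenitors or platelets carried along. In such samples fewer cells of a type and less RNA per cell cannot be told apart.

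Upstream sequences are shown for 6 members. Gp1bb, Gp9 and Gp5 were taken because their proteins form a receptor together while their values differed. Selp, Mmrn1 and Trpc6 are examples of members above or below 0, and some members not shown lay farther from 0 than Mmrn1. Each sequence is the 250 bases before the gene's start, 5′ to 3′ on the gene's strand, from RefSeq on GRCm38.p6. Capitals mark matches on either strand to a GATA motif (AGATAA or TGATAA) or an ETS motif (CGGAAG or AGGAAG). These are forms of the motifs bound by GATA1 and FLI1, main transcription factors of megakaryocytes. Other forms were not searched, so a window without a match may still hold one. An E2F motif (TTCCCGC or TTGGCGC) was searched too and had no match in these 6.
Gp1bb (chr16:18622404-18622653, minus strand): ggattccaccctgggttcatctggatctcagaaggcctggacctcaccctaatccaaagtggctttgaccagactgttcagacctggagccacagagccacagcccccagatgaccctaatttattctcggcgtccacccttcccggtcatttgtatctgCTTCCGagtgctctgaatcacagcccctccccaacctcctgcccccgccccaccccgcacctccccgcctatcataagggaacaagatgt
Gp9 (chr6:87777820-87778069, plus strand): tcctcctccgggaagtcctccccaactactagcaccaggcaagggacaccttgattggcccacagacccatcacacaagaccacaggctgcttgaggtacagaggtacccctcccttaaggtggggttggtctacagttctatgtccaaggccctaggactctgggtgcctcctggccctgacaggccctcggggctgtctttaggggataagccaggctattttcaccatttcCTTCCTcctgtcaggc
Gp5 (chr16:30310782-30311031, minus strand): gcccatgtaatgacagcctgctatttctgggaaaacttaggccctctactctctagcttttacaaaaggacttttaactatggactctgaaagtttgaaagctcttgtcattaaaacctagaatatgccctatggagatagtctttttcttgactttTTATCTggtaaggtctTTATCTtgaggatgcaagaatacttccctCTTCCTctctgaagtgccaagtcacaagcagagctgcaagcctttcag
Selp (chr1:164115014-164115263, plus strand): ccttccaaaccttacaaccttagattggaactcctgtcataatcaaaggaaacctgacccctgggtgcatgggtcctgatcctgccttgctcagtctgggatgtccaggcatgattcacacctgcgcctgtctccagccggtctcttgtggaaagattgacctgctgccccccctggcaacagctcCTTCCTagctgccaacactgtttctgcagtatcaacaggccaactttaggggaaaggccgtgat
Mmrn1 (chr6:60944067-60944316, plus strand): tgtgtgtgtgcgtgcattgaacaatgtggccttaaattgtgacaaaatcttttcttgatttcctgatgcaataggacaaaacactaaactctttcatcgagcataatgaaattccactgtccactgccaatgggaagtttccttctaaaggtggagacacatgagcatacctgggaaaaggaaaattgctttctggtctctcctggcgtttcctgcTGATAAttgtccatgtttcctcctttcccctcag
Trpc6 (chr9:8543892-8544141, plus strand): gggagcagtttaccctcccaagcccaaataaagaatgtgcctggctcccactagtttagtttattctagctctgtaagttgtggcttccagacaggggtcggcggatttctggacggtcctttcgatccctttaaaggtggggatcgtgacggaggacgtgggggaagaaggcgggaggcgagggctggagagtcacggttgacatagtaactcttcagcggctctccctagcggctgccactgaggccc

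Gp5 holds 2 GATA matches and 1 ETS match, while Gp1bb, Gp9 and Selp hold 1 ETS match each and no match to the GATA forms searched. Mmrn1 holds 1 GATA match, and Trpc6 holds none of the forms searched. Stx11 and Tbxas1, not shown, lay farther from 0 than Mmrn1 and hold 1 and 2 ETS matches. Of the 29 members searched, 7 (24.1%) held the GATA motif, against 17.0% of 27025 promoter windows of this length. The ETS motif was in 16 members (55.2%) against 39.0% of all windows, and the E2F motif in 1, Serpine2 (3.45%), against 5.71%. These matches are a description of the letters and do not show that a factor binds. The RefSeq span of Gp1bb overlaps that of its neighbour Septin5, and a further probe set annotated to both genes was not used, so transcripts of the neighbour cannot be told apart from Gp1bb.

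Values are log2 expression, those of deficient pools 1 and 2 always before those of wild type pools 1 and 2, and each difference is deficient minus wild type with its moderated standard error (SE) and n = 2 pools per group. By limma 0 of 33 members passed an adjusted p of 0.05, where 0% of all genes did. The adjusted p of a member ran from 0.761 to 0.997. At an unadjusted p under 0.05 stood 7 of the 33 members (21.2%), against 6.23% of all genes. The 3 higher ones were Gp1bb, Selp and Stx11 (2.19% of all genes were higher at this level), and the 4 lower ones Trpc6, Mmrn1, P2rx1 and Tbxas1 (4.04% of all genes were lower). Over all genes that split, 399 against 735, was 298 against 1009 with each array centred on its median and 601 against 530 when centred on the median of genes, while the members' counts were 3 and 4 under both. The groups did not overlap for 11 members (33.3%), against 35.5% of all genes. This share is near that of all genes. Of these 11 members 7 were higher and 4 lower. A difference of at least 0.5 in size was seen for 11 members (33.3%), against 7.48% of all genes. The members were chosen with earlier results of these data known, so their shares beside those of all genes are a description only. In all, 20 members lay above 0 and 13 below, and the median difference was 0.037, beside -0.0038 over all genes. That median was -0.016 with each array centred on its median and -0.018 when probe sets of a gene were averaged, so the members as a set have no settled direction.

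**Figure D1:**
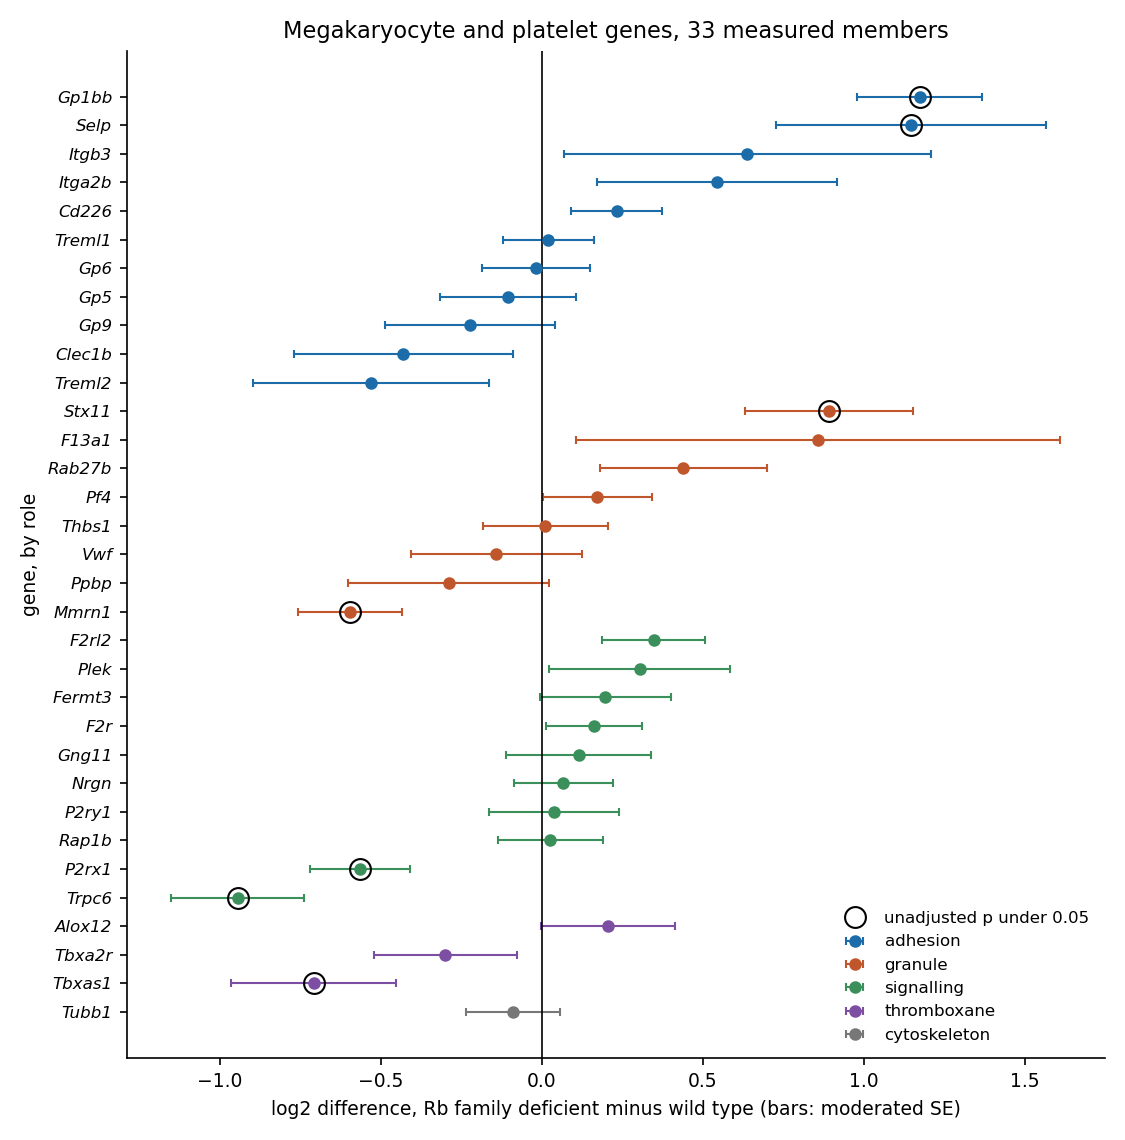
Log2 difference (x axis, Rb family deficient minus wild type) of each of the 33 measured members (y axis, grouped and coloured by role), with bars for the moderated SE and rings on the 7 genes at an unadjusted p under 0.05. Differences run from -0.95 for Trpc6 to 1.17 for Gp1bb, and no role lies as a whole on one side of 0 apart from the single cytoskeletal gene.

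Several other readings moved between the pools. Mature neutrophil markers had the higher mean in the deficient pools for 11 of 12 measured genes (median difference 0.90). For 7 of them (58.3%) the groups did not overlap, all higher, beside 17.0% of all genes. Their summed level (log2) was 16.090 and 15.430 against 14.343 and 15.436, so the groups overlapped. Summed levels of erythroid markers ran from 13.3 to 13.6 in the deficient and from 13.4 to 14.0 in the wild type pools, with 8 of 11 above 0. Those of endothelial and stromal markers ran from 10.8 to 11.9 and from 10.5 to 10.7, with 11 of 13 above 0, and the endothelial cadherin Cdh5 lay between 4.81 and 4.97 on every array. Of that list the receptor gene Tie1 lay farthest below 0, at 5.22 and 5.88 against 7.85 and 6.34 (-1.54, SE 0.53, limma adjusted p = 0.770, groups not overlapping). Monocyte and macrophage markers ran from 11.4 to 12.05 and from 11.2 to 11.9 (12 of 14 above 0), B cell markers from 9.46 to 10.3 and from 9.04 to 10.2 (8 of 8), T and NK cell markers from 10.3 to 10.6 and from 10.02 to 10.49 (8 of 10), and mast cell and basophil markers from 9.51 to 9.56 and from 8.60 to 9.94 (6 of 9). RNA quality was read from the Actb controls, whose signal at the 3' end exceeded that at the 5' end by 3.13 and 2.95 against 2.32 and 2.81 (log2), while for the Gapdh controls the groups overlapped, at 2.79 and 2.50 against 2.40 and 2.58. Of the sort markers, Slamf1 (CD150) stood at 9.26 and 9.90 against 8.81 and 9.86, Cd48 at 6.29 and 6.57 against 5.84 and 7.09, and Kit at 9.94 and 10.45 against 11.09 and 10.47. The part of these in the members' values was not tested.

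Adhesion receptors spanned the widest range of differences, from -0.53 for Treml2 to 1.17 for Gp1bb. Gp1bb, the beta subunit of glycoprotein Ib, had values of 8.90 and 9.33, against 7.91 and 7.97 in wild type. Both deficient pools were high and the groups did not overlap. Gp1bb was 2.26-fold higher (log2 difference 1.17, SE 0.19, limma adjusted p = 0.761). The genes of its measured partner subunits lay nearer to 0, while Gp1ba, the gene of the alpha subunit, had no value here. Gp9 stood at 7.79 and 8.49 against 8.26 and 8.47 (-0.22, SE 0.26), and Gp5 at 7.004 and 7.31 against 7.47 and 7.05 (-0.10, SE 0.21). Both overlapped between groups, and no test of the difference between partners was made.

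Selp encodes P-selectin, which is stored in granules and brought to the surface of activated platelets and endothelial cells to hold leukocytes. Its values were 9.14 and 9.21 against 8.67 and 7.39. The deficient pools were close together and above both wild type pools, of which pool 2 was by far the lowest. Selp was 2.21-fold higher (log2 1.15, SE 0.42, limma adjusted p = 0.783), by 0.50 without wild type pool 2 and 1.79 without wild type pool 1. All 3 probe sets of Selp lay above 0, at 1.15, 0.98 and 1.22.

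Itga2b and Itgb3 encode the subunits of the platelet fibrinogen receptor. Itga2b (CD41) stood at 9.57 and 10.65 against 9.71 and 9.42 (difference 0.54, SE 0.37), with deficient pool 2 alone high. Itgb3 stood at 8.11 and 9.25 against 8.73 and 7.35 (0.64, SE 0.57), and here too deficient pool 2 was the highest and the groups overlapped. Without deficient pool 2 the difference was 0.0021 for Itga2b and 0.065 for Itgb3, and without wild type pool 2 it was -0.051 for Itgb3. Treml2, a receptor of the TREM-like family, stood at 9.39 and 9.97 against 10.68 and 9.74 (-0.53, SE 0.37), with wild type pool 1 alone high, and differed by -0.063 without that pool.

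The remaining adhesion receptors differed by less than 0.5. Clec1b (CLEC-2, the podoplanin receptor) was at -0.43 (SE 0.34), where wild type pool 2 alone was high at 7.10 and the other pools ran from 6.09 to 6.18. Treml1 (TLT-1, a granule membrane receptor) was at 0.021 (SE 0.14) and the collagen receptor Gp6 at -0.018 (SE 0.17). Treml1 turned to -0.033 with each array centred on its median, and Gp6 to 0.036 with arrays centred on the median of genes. Cd226 (DNAM-1), a ligand-binding adhesion molecule also found on lymphocytes, was at 0.23 (SE 0.14) with values between 3.15 and 3.45. Of the 11 adhesion receptors 6 lay above 0 with a median difference of 0.021 (-0.033 with each array centred on its median). Groups did not overlap for 3 (27.3%), Gp1bb, Selp and Cd226, all higher, where 17.0% of all genes were higher in this way. Cd226 was dim, at percentile 1.54 of mean level over all genes.

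**Figure D2:**
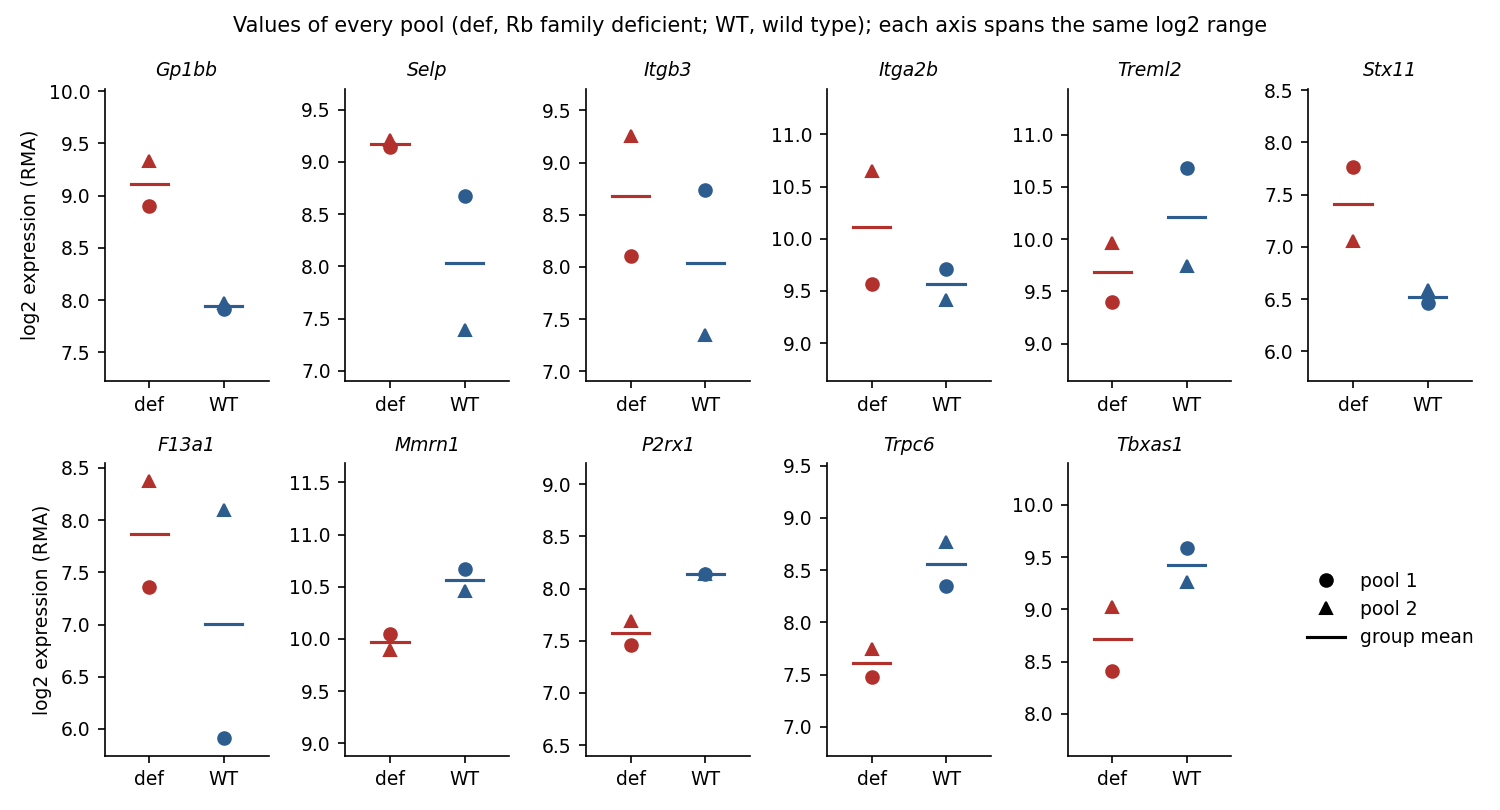
Log2 expression (y axis) of each pool for the 11 members with an unadjusted p under 0.05 or a difference of at least 0.5, with circles for pool 1, triangles for pool 2 and lines for group means. Gp1bb, Selp, Stx11, Mmrn1, P2rx1, Trpc6 and Tbxas1 have groups that do not overlap, while those of Itgb3, Itga2b, Treml2 and F13a1 overlap.

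Granule cargo genes, the main content of platelet alpha granules, mostly lay near 0. Pf4 (platelet factor 4, a chemokine) stood at 12.51 and 12.23 against 12.27 and 12.12 (0.17, SE 0.17). Vwf, the carrier of factor VIII and ligand of glycoprotein Ib, stood at 8.96 and 9.70 against 9.46 and 9.48 (-0.14, SE 0.27). Ppbp, the precursor of the platelet chemokine CXCL7, was at -0.29 (SE 0.31) and Thbs1 (thrombospondin 1) at 0.011 (SE 0.19), or -0.043 with each array centred on its median. For these 4 genes the groups overlapped. Deficient pool 1 was the lowest pool for Vwf and Ppbp, and without it they differed by 0.23 and 0.15.

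Mmrn1 encodes multimerin 1, a granule protein that binds factor V and is also made by endothelial cells. Its values were 10.05 and 9.89 against 10.67 and 10.46, so the deficient pools were the lower ones without overlap. Mmrn1 was 1.51-fold lower (log2 -0.60, SE 0.16, limma adjusted p = 0.761). Its second probe set, at a mean of 3.23, differed by 0.084 (SE 0.18), and Mmrn1 differed by -0.26 when both were averaged.

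The secretion gene Stx11, whose syntaxin is needed for granule release in platelets and killer lymphocytes, stood at 7.77 and 7.06 against 6.46 and 6.58. Both deficient pools were above the wild type pools, pool 1 the further. Stx11 was 1.86-fold higher (log2 0.89, SE 0.26, limma adjusted p = 0.761), and by 0.54 without deficient pool 1. Its second probe set was at 0.62 (SE 0.33). Rab27b, a small GTPase of granule transport, was at 0.44 (SE 0.26) by its brightest probe set, while the other 3 were at -0.39, -0.60 and -0.16, so its direction depends on the probe set. F13a1, the catalytic chain of coagulation factor XIII and also a product of monocytes, stood at 7.36 and 8.37 against 5.92 and 8.10 (0.86, SE 0.75). Wild type pool 1 alone was low, and without it F13a1 differed by -0.23. Of the 8 granule and secretion genes 5 lay above 0 with a median difference of 0.092, and -0.17 without wild type pool 1 and -0.16 when probe sets of a gene were averaged.

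Among the signalling genes, the only differences below 0 were those of both cation channels. Trpc6, a cation channel opened by diacylglycerol, stood at 7.48 and 7.74 against 8.35 and 8.77. Both deficient pools were low without overlap, and Trpc6 was 1.93-fold lower (log2 -0.95, SE 0.21, limma adjusted p = 0.761). P2rx1, the ATP-gated cation channel of platelets, stood at 7.46 and 7.69 against 8.14 and 8.14. The wild type pools were alike and both above the deficient pools. P2rx1 was 1.48-fold lower (log2 -0.56, SE 0.16, limma adjusted p = 0.761), and its second probe set was at -0.47 (SE 0.25).

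The G protein-coupled receptors differed little. F2r, the thrombin receptor PAR1, stood at 12.85 and 12.92 against 12.80 and 12.65 (0.16, SE 0.15), and F2rl2 (PAR3, the thrombin co-receptor of mouse platelets) at 5.19 and 4.94 against 4.74 and 4.69 (0.35, SE 0.16). The groups of both genes did not overlap, with the deficient pools the higher. A second probe set lay below 0 for each, at -0.022 for F2r (mean level 10.98) and -0.23 for F2rl2 (a dim one, mean level 3.51). The ADP receptor P2ry1 was at 0.037 (SE 0.20), and at -0.032 after a second quantile normalization and -0.016 with each array centred on its median.

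Genes downstream of the receptors lay close to 0. Integrin activation requires Rap1b, a small GTPase (0.026, SE 0.16, or -0.028 with each array centred on its median), and Fermt3, the kindlin that binds the integrin tail (0.20, SE 0.20). Fermt3 depended on the probe set, with others at -0.29, -0.50 and 0.18. The protein kinase C substrate Plek (pleckstrin) was at 0.30 (SE 0.28), with wild type pool 2 alone low at 9.39 and the other pools from 9.999 to 10.17. Gng11, a G protein gamma subunit, was at 0.11 (SE 0.22) and Nrgn (neurogranin, a calmodulin-binding protein) at 0.067 (SE 0.15). Of the 10 signalling genes 8 lay above 0 with a median of 0.090, and the 2 below 0 were Trpc6 and P2rx1.

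Thromboxane A2 is made from arachidonic acid by cyclooxygenase 1 (Ptgs1, not measured) and thromboxane synthase. The synthase gene Tbxas1 stood at 8.41 and 9.03 against 9.59 and 9.26. The deficient pools were below the wild type pools without overlap, pool 1 the lowest. Tbxas1 was 1.63-fold lower (log2 -0.71, SE 0.26, limma adjusted p = 0.782), and by -0.40 on the log2 scale without deficient pool 1. Its receptor gene Tbxa2r stood at 7.35 and 7.59 against 8.03 and 7.51 (-0.30, SE 0.22) and overlapped, with -0.041 without wild type pool 1. Alox12, the platelet 12-lipoxygenase that uses the same substrate, was at 0.21 (SE 0.21). The median of these 3 genes was -0.30. Tubb1, the beta-1 tubulin of the platelet's marginal band, ran from 6.25 to 6.44 over all pools (-0.089, SE 0.15).

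The 33 members had 57 probe sets in all, and more than 1 was present for 15 of them. Those of Selp, Gp1bb, Stx11, Itgb3, P2rx1 and Treml2 lay on one side of 0 for each gene. The second Gp1bb probe set stood at 7.57 and 7.71 against 6.91 and 7.39, so it too had groups without overlap, at a difference of 0.49 (SE 0.21). Probe sets on both sides of 0 were found for Rab27b, Thbs1, Mmrn1, F2rl2, Plek, Fermt3, F2r, Rap1b and Alox12. The second probe sets of Alox12, F2rl2 and Mmrn1 were dim, at means of 3.67, 3.51 and 3.23.

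**Figure D3:**
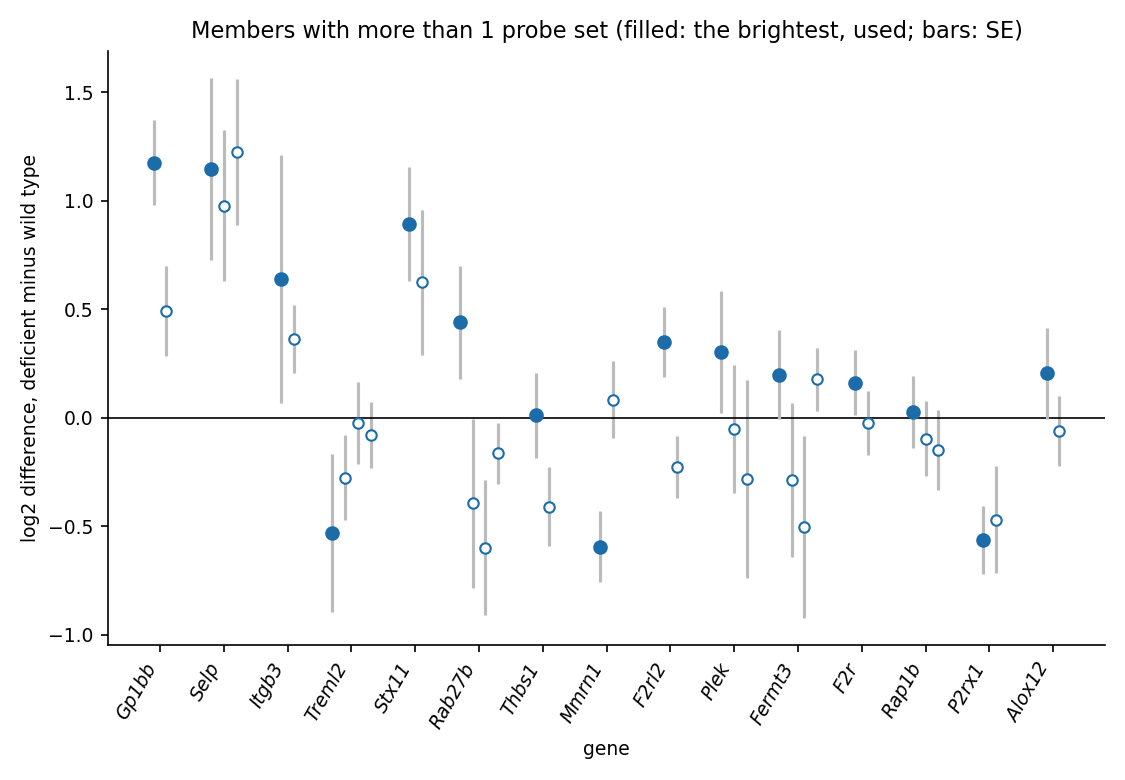
Log2 difference (y axis, deficient minus wild type, bars for SE) of every probe set of the 15 members with more than 1 (x axis), filled for the brightest one, which gave the gene its value. The 3 Selp probe sets lie between 0.98 and 1.22, whereas those of Rab27b run from -0.60 to 0.44.

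Pools of 1 group also differed from each other in these genes. Between the deficient pools 3 members (9.09%) differed by over 1 on the log2 scale, Itga2b (1.08), Itgb3 (1.15) and F13a1 (1.01), all higher in pool 2, against 1.24% of all genes. Between the wild type pools 4 members (12.1%) did so, against 2.37% of all genes. F13a1 (2.18) and Clec1b (1.01) were higher in wild type pool 2, and Itgb3 (-1.38) and Selp (-1.28) lower. The median size of these differences was 0.26 and 0.22 for the members and 0.18 and 0.20 for all genes. Deficient pool 2 had the highest value for 13 of the 33 members, beside 7, 6 and 7 for deficient pool 1 and wild type pools 1 and 2. Over all genes it had the highest value for the fewest, 3618 of 18193, beside 4860, 4732 and 4983 for those pools. Over adhesion receptors deficient pool 2 was above deficient pool 1 for 9 of 11 genes, with a median difference of 0.31.

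**Figure D4:**
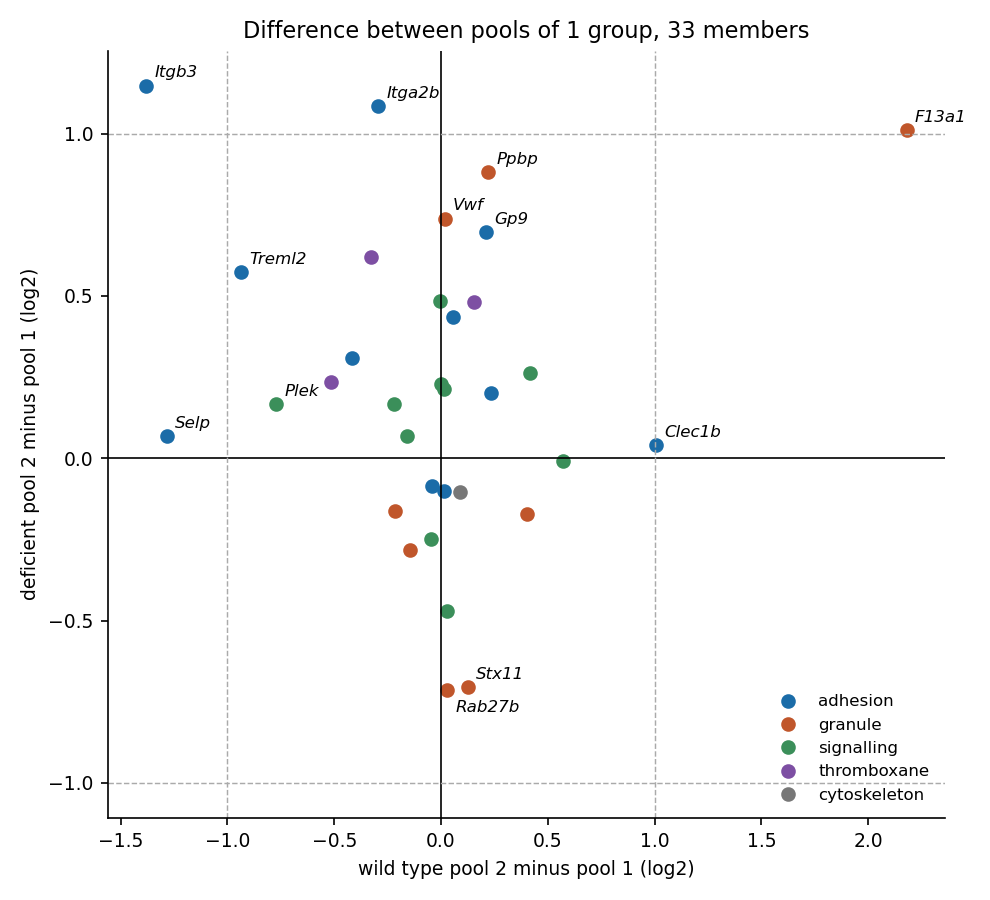
Difference between the pools of 1 group for each of the 33 members, wild type pool 2 minus pool 1 (x axis, log2) and deficient pool 2 minus pool 1 (y axis, log2), coloured by role, with dashed lines at 1 and -1. F13a1 differs by 2.18 between the wild type pools and 1.01 between the deficient pools, and Itgb3 by -1.38 and 1.15.

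Other genes of the megakaryocyte and platelet programme, 83 measured of 91 listed, lay more often below 0 than above (54 against 29). Their median difference was -0.081, beside -0.0038 over all genes, of which 49.2% lay above 0. Their median level was higher, at 8.95 against 6.996 over all genes. With dim genes left out the median difference was -0.084 for this list and -0.088 over all genes kept, so the medians were then alike. Whether the tilt below 0 is particular to this programme was not tested. By limma 0 passed over all genes. At an unadjusted p under 0.05 were 1 higher and 4 lower, 6.02% of these genes beside 6.23% of all genes, so the share was near that of all genes. Groups did not overlap for 12 higher and 17 lower, 14.5% and 20.5% beside 17.0% and 18.5% of all genes. Pde5a, the phosphodiesterase that breaks down cyclic GMP, stood at 8.53 and 8.21 against 7.39 and 7.12. Both deficient pools were high, and Pde5a was 2.16-fold higher (log2 1.11, SE 0.19, limma adjusted p = 0.761). Averaged over its probe sets it differed by 0.65, and by 0.72 with specific probe sets first.

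The 4 lower genes were Gnaz, a G protein alpha subunit of the inhibitory class (-0.51, SE 0.15), Snap23, a SNARE protein of granule release (-0.48, SE 0.17), the actin regulator Vasp (-0.66, SE 0.25) and the junctional adhesion molecule Jam3 (-0.43, SE 0.17), with a limma adjusted p between 0.761 and 0.793. Averaged over probe sets, Gnaz differed by -0.23, Snap23 by -0.29 and Jam3 by -0.18. Snap23 differed by -0.31 without deficient pool 1, Vasp by -0.33 without wild type pool 1, and Jam3 by -0.28 without wild type pool 2. Of the 13 measured transcription factors 4 lay above 0 and 9 below (median -0.13), with 0 at an unadjusted p under 0.05 in either direction. Medians of the other lists were -0.053 for 13 receptors, -0.084 for 25 signal transduction genes, -0.017 for 13 cytoskeletal genes and -0.17 for 19 granule genes.

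**Figure D5:**
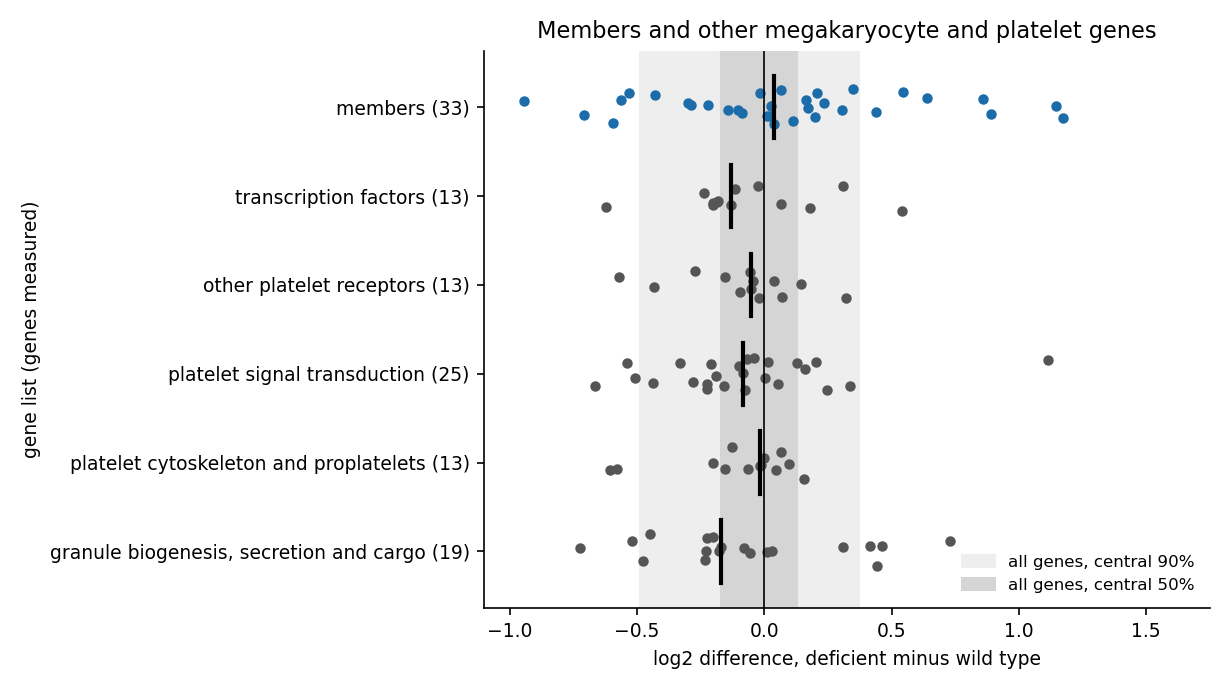
Log2 difference (x axis, deficient minus wild type) of each member and of each gene on 5 other lists of the programme (y axis, number measured in brackets), with black bars for medians and grey bands for the central 90% and 50% of all genes. The medians run from -0.17 for granule biogenesis, secretion and cargo to 0.037 for the members, and single genes on both sides lie outside the band that holds 90% of all genes (-0.49 to 0.37).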

How the data were processed

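The deposited values are on a log2 scale, as judged by their range (2.65 to 14.9). They were made by the authors with RMA, which corrects background, equalizes the arrays' distributions and sums up each probe set, per the submitters' processing notes. These notes also name limma, and give no versions. RMA evens out total RNA per cell and compresses folds of dim probe sets. Without detection calls no probe set is said to be above background. The number of arrays sets the precision. Of 45101 probe sets, 64 were controls, 34945 had 1 gene symbol in the platform annotation, 932 several and 9160 none. Symbols were updated by Entrez ID with RefSeq (GRCm38.p6), where 34741 matched. Each gene took its brightest probe set with 1 symbol, giving 18193 genes.

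Groups came from sample titles. Differences were fitted over all genes with limma 3.58.1 (lmFit, eBayes) in R 4.3.3, without a block or filter, with Benjamini-Hochberg adjustment. The script was tested on simulated data. An exact permutation test of 2 against 2 pools cannot go below a two-sided p of 0.333, so none was run. Alternatives were other probe set choices, 3 rescalings, a filter on dim genes, trended and robust variances, the replicate block and each pool left out. The members and lists were chosen with earlier results of these data known. All members are named, with every pool's value for those at an unadjusted p under 0.05 or a difference of at least 0.5. Of the other programme genes those at an unadjusted p under 0.05 are named, at most 4 in each direction. Promoter windows came from RefSeq, where 29 of the 37 genes matched.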

Additional observations from a re-analysis of the deposited data

How the results depend on the processing

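No gene passed an adjusted p of 0.05 by limma under any of the 13 alternatives. Of the 33 members 15 kept their direction under every alternative that could give a value, among them all 7 at an unadjusted p under 0.05, and 18 turned under at least 1. Trended and robust variances, the replicate block and the filter on dim genes leave a gene's difference unchanged, so its direction could not turn there. Nor can leaving out a pool turn a gene whose groups do not overlap, which holds for all 7. At an unadjusted p under 0.05 stood 399 genes on the higher and 735 on the lower side. This split was 298 and 1009 with each array centred on its median, 601 and 530 centred on the median of genes (added after the data were seen), 524 and 534 after a second quantile normalization, 488 and 588 with trended and robust variances, 176 and 408 without dim genes, which tests fewer genes, and 244 and 317 without deficient pool 1. Without wild type pool 2 it was 689 and 1082.

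The sample titles do not say whether the replicate numbers pair the pools. The differences of pool 1 and pool 2 correlated at -0.19 over genes, which cannot settle it. Under the replicate block the split was 281 and 457, with 0 genes passing after adjustment. Crossed numbers, added after the data were seen, gave 518 and 1151, with 0 passing. Of the members 3 higher and 4 lower stood at this level, and 2 and 3 with the replicate block. With a pool left out the members at this level ran from 2 to 4 higher and from 2 to 6 lower.

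The median difference of the members was 0.037, and -0.018 with the mean of probe sets and -0.016 with each array centred on its median, where that of adhesion receptors was -0.033. It ran from -0.035 to 0.11 with a pool left out. That of the other programme genes was -0.081, and -0.042 with the mean of probe sets, -0.034 after a second quantile normalization, -0.13 with each array centred on its median and -0.027 centred on the median of genes. With a pool left out it ran from -0.20 to -0.046. The granule list turned to -0.16 with the mean of probe sets and ran from -0.17 to 0.21 with a pool left out.

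With the mean of probe sets Thbs1 turned to -0.20, Rab27b to -0.18, Plek to -0.010, Rap1b to -0.073 and Fermt3 to -0.10. After a second quantile normalization Thbs1 was at -0.049 and P2ry1 at -0.032. With each array centred on its median Treml1 was at -0.033, Thbs1 at -0.043, P2ry1 at -0.016 and Rap1b at -0.028, and centred on the median of genes Gp6 was at 0.036. With a pool left out the ranges across 0 were -0.051 to 1.33 for Itgb3, -0.31 to 0.10 for Gp5, -0.14 to 0.099 for Gp6, -0.57 to 0.12 for Gp9, -0.93 to 0.073 for Clec1b, -0.030 to 0.072 for Treml1, -0.73 to 0.15 for Ppbp, -0.51 to 0.23 for Vwf, -0.19 to 0.21 for Thbs1, -0.23 to 1.95 for F13a1, -0.20 to 0.27 for P2ry1, -0.17 to 0.40 for Gng11, -0.083 to 0.69 for Plek, -0.084 to 0.14 for Rap1b, -0.044 to 0.44 for Fermt3, -0.041 to 0.17 for Nrgn and -0.035 to 0.45 for Alox12. The cause of these changes was not tested.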

Other observations

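Sparc, a matrix protein that platelets carry in their granules and that stromal cells secrete, was at 9.16 in deficient pool 1 and from 7.15 to 7.47 in the other pools. The collagen genes Col3a1 and Col1a1, markers of stromal cells, were also highest in that pool, at 10.80 and 7.99, against 5.98 to 7.20 and 5.78 to 6.02 in the other pools. The platelet-derived growth factor receptor gene Pdgfrb was at 9.59 and 9.66 in deficient against 8.87 and 8.32 in wild type pools (log2 difference 1.03, SE 0.22). These genes were picked after their values were seen. Wild type pool 1, which had the lowest F13a1 value of all pools, also had the lowest values of the erythroid genes Klf1 (7.40, others 8.81 to 9.86) and Car1 (8.08, others 9.41 to 11.70). These too were picked after their values were seen. The measured erythroid markers Epor, Slc4a1, Alas2, Ermap, Rhag, Tfrc and Sptb were also lowest in wild type pool 1, while Car2 and Hba-a1 were not. The median erythroid level was lowest there (7.28, others 7.70 to 8.35). The summed erythroid level was not (13.35, against 13.33 in deficient pool 2). Summed neutrophil, monocyte, B cell, T and NK cell, and mast cell levels of wild type pool 1 were the lowest of all pools.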
